A study of Homo sapiens with 38 samples.

Results

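The 3104 regions described here were marked by acetylation of lysine 27 of histone H3 (H3K27ac) away from gene starts in K562 cells. They were chosen by presence in the deposited MACS2 peak lists: peaks of the 6 H3K27ac benchmark libraries on chromosomes 1 to 22 and X were merged into 43857 regions. Of these, 13490 were overlapped by a peak of every one of the 6 libraries, and 3301 of the 13490 lay more than 3 kb from any annotated transcript start. A further 197 regions (5.97% of the 3301) overlapped an H3K27me3 peak of either benchmark library and were set aside, which left the 3104. They are called distal regions below. The remaining 10189 regions of the 13490 lay within 3 kb of a start, and the 9090 of them without an H3K27me3 peak are called promoter regions. Since all of these classes rest on the benchmark lists, the benchmark values given below are descriptions and carry no test.

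K562 is an established line from a patient with chronic myeloid leukaemia; it carries the BCR-ABL1 fusion and has features of red cell precursors. The libraries were made by CUT&Tag, in which an antibody guides a transposase to the marked chromatin. The 6 H3K27ac benchmark libraries were 2 replicates each of the antibodies Abcam ab177178 at 1:100, Abcam ab4729 at 1:100 and Diagenode at 1:50, and the 2 H3K27me3 libraries used CST-9733 at 1:100. All 8 had 15 cycles of PCR and DNA released with SDS, without the histone deacetylase inhibitor Trichostatin A (TSA). A further 30 libraries of the same cells were not used to choose the regions. They comprised 6 first libraries (5 for H3K27ac, at 15 cycles with SDS), 4 H3K27ac libraries with TSA, and 20 libraries of a PCR and extraction experiment. That experiment crossed 11 or 13 cycles with SDS-based or column-based extraction for 4 H3K27ac antibodies (the same 3 and Active Motif) and CST-9733. Its H3K27ac conditions held 1 library each. The peak lists give no read depth. The paper's supplement gives the unique fragments of each library, but missing peaks were not weighed against depth here.

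Enhancers are stretches of DNA that raise transcription of a gene from a distance. Transcription factors bind them and recruit acetyltransferases, and nucleosomes beside active enhancers and active promoters carry H3K27ac, while H3K27me3 is laid down by Polycomb complexes on silent genes. In red cell precursors, many enhancers are bound by GATA1 together with TAL1 and LMO2. The locus control region upstream of HBE1 acts on the β-globin genes.

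The letters at 6 distal regions are shown first. They lie at the β-globin locus, at 3 genes of the GATA1 complex and at the transferrin receptor gene TFRC. The last lies in DLGAP1, in a region that every other H3K27ac library called. Each sequence is the 300 bp window centred on the part of the region that most of the 6 benchmark lists share. It is given on the plus strand of hg19 (GRCh37). Capitals mark GATA letters (AGATAA or TGATAA) and AP-1 letters (TGANTCA), read on either strand.
HBE1 upstream, chr11:5306112-5306411: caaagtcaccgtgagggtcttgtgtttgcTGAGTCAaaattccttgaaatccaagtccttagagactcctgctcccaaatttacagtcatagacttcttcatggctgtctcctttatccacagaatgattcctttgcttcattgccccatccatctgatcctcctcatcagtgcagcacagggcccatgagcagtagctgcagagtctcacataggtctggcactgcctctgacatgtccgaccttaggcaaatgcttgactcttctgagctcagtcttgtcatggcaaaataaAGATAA
near TAL1, chr1:47679012-47679311: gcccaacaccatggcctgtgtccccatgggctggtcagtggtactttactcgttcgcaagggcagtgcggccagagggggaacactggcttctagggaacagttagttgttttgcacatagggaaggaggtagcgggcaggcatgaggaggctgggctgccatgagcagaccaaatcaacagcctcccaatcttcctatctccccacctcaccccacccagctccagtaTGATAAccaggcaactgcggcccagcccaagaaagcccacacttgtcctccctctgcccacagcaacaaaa
near GATA1, chrX:48652965-48653264: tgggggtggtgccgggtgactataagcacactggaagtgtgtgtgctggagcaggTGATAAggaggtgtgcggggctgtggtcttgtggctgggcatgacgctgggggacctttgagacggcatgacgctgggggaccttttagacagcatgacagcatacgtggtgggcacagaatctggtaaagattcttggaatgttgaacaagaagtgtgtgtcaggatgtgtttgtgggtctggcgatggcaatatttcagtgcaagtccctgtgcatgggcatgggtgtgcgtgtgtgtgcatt
near LMO2, chr11:33962839-33963138: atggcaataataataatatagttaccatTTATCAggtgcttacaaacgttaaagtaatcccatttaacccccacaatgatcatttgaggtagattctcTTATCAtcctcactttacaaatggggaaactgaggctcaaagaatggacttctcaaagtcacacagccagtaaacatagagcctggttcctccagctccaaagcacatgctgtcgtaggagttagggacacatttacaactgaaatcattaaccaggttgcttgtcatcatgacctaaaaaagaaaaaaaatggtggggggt
near TFRC, chr3:195835178-195835477: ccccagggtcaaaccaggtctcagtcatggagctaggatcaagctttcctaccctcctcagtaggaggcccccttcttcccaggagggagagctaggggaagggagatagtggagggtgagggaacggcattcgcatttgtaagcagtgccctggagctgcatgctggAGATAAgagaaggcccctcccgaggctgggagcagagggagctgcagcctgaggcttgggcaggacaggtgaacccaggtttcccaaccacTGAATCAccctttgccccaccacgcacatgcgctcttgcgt
DLGAP1 intron, chr18:3623862-3624161: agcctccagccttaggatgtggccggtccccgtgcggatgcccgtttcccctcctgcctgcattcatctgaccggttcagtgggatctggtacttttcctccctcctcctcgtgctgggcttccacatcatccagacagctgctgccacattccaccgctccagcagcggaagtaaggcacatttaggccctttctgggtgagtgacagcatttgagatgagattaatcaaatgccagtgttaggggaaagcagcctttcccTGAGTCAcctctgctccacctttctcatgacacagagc

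The window upstream of HBE1 holds 1 GATA and 1 AP-1 match, as does the window near TFRC. The windows near TAL1 and GATA1 hold 1 GATA match each, and that near LMO2 holds 2. The DLGAP1 window holds 1 AP-1 match. These windows do not stand for the whole set, since 1676 distal regions (54.0%) held neither GATA nor AP-1 letters.

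In the benchmark lists the distal regions were wide, strong peaks, though lower than those at promoters. Their width ranged from 396 to 17441 bp with a median of 1747.5 bp, and together they covered 6.79 Mb. The median was 2306 bp for promoter regions and 1063.5 bp for the 1422 distal regions that 5 of the 6 lists called. The fold of a peak is its pileup over the background as MACS2 gives it, and the highest fold in a region was taken per library. The median fold over the distal regions was 15.5 in both ab177178 libraries, 11.6 and 17.2 in the ab4729 libraries, and 14.6 and 19.5 in the Diagenode libraries. Promoter regions had medians of 23.2, 22.7, 13.1, 19.2, 19.5 and 26.8 in the same order, so they stood higher in each of the 6 libraries. Across the 3104 distal regions the fold ranked alike in replicates of an antibody (Spearman's rho 0.794 to 0.893 over 3 pairs) and less alike between antibodies (0.643 to 0.809 over 12 pairs). These correlations are across regions of the same libraries, and regions are not replicates.

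The heights of single regions differed by more than 10-fold. A region of 11176 bp between DDIT4 and DNAJB12 had folds of 104 and 95.6 with ab177178, 108 and 150 with ab4729, and 183 and 229 with Diagenode. At the other end, the region with the lowest mean percentile of fold, in C20orf203, had folds of 6.18 to 8.00 over the 6 libraries. A region of 634 bp whose nearest coding gene is EFNA5 had folds of 7.14 and 7.17 with ab177178, 8.73 and 11.0 with ab4729, and 12.6 and 12.2 with Diagenode. A region of 7149 bp upstream of HBE1, the embryonic β-like globin gene, had folds of 40.5 and 38.2, 37.8 and 46.7, and 36.3 and 52.3 in the same order. All 3 antibodies stood high at the globin region, and their values overlapped.

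**Figure D1:**
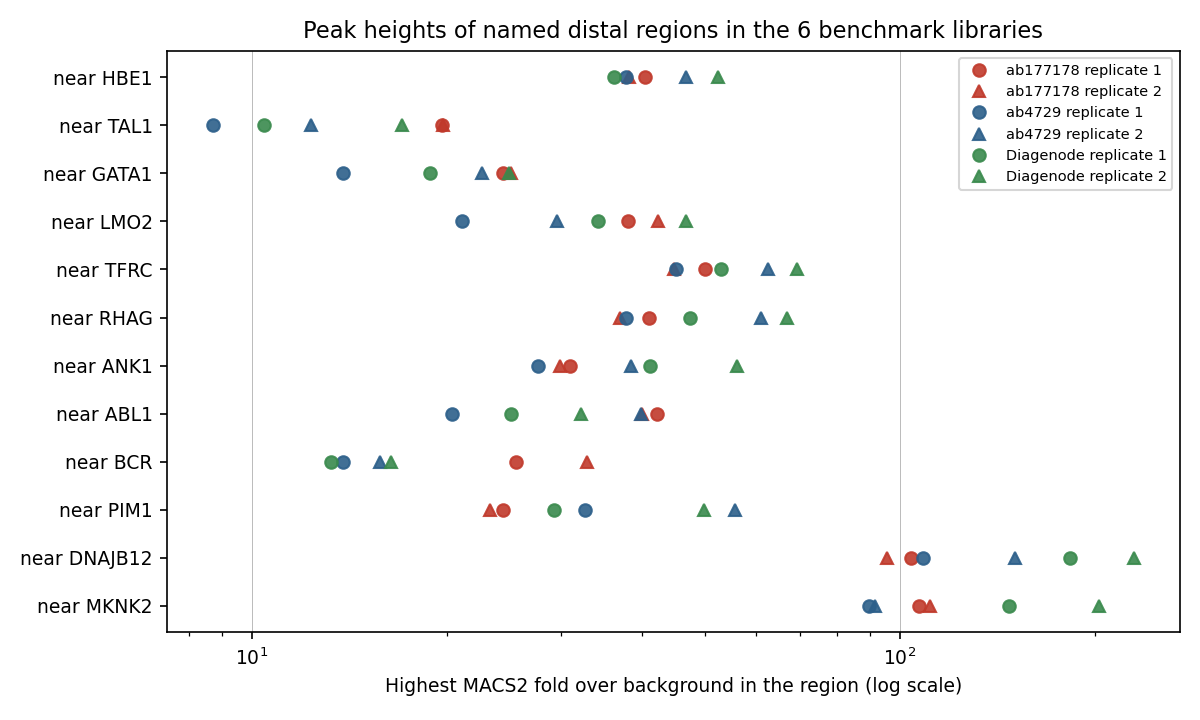
Highest MACS2 fold over background (log axis) of 12 distal regions in each of the 6 benchmark libraries, with colour for the antibody and shape for the replicate. For each of 10 genes the plot shows the region within 50 kb that most other lists called, and the 2 regions at the bottom lead the regions called in all 25 other lists; the region between DDIT4 and DNAJB12 reached 229, and that near TAL1 started at 8.73.

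The thresholds of the choice cut through a continuum. The regions just inside the distance limit lay 3010 bp (MARCHF6), 3012 bp (SAMSN1) and 3014 bp (DTX2) from a start, and those just outside lay at 3000, 2998 and 2996 bp. At the limit of 6 lists, the region near SNX9 had folds of 35.7, 35.2, 33.5, 44.0 and 30.4 in the ab177178, ab4729 and second Diagenode libraries and no peak in the first Diagenode library. Among the 1422 distal regions of 5 lists, the missing list was ab4729 replicate 1 in 820 and Diagenode replicate 1 in 318. The lowest −log10 q of a distal region in any of the 6 lists was 5.38. A second caller, SEACR, run by the authors on the same 6 libraries, had a peak on 75.2% to 86.9% of the distal regions. SEACR peaks were wider: the median width of those on distal regions was 3715 ± 473 bp (SD over 6 libraries). Of these peaks, 8.58 ± 2.58% covered an annotated start.

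Most distal regions lay inside genes, as do most known bases. Of the 3104 centres, 63.3% were intronic, 3.16% exonic and 33.5% intergenic by GENCODE 44 on GRCh37, while 56.8%, 5.49% and 37.8% of all known bases fell in these classes. Exons held 45.1% of promoter region centres and 7.71% of the distal regions that only 1 of 6 lists called. Distal regions of fewer lists were less often intergenic, at 22.2% for 1 list and 30.3% for 5. Introns held 70.1% and 64.5% of them. The median distance to a start of any gene was 10389 bp, and 1.42% of the regions lay over 100 kb away. A protein-coding gene hosted 1683 regions (54.2%), and for 90.8% of these the nearest coding start was that of the host. The remaining hosted regions lay nearer to the start of another gene, as did a region in LANCL3 whose nearest coding start was that of XK.

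The density of distal regions differed between chromosomes. It was 1.09 per Mb of known bases in all, highest on chromosomes 22 (2.24), 19 (1.72) and 6 (1.70), and lowest on X (0.457) and 13 (0.523). Chromosome 19, which is rich in genes, had 0.156 distal regions per promoter region and chromosome 6 had 0.549, with 0.341 overall. K562 has an abnormal karyotype, and copy number was not tested as a part of these differences. Within 10 kb of a neighbour lay 1005 regions (32.4%), in 414 clusters. The cluster with most members had 9 regions at chr1:145312834-145356971 in NBPF10, and their windows recurred in the genome, with 30 to 60.5 copies of their letters. The next had 8 regions at chr10:74050090-74089804, between DDIT4 (a stress-induced inhibitor of mTOR signalling) and DNAJB12. A cluster of 7 regions spanned 66321 bp at chr6:43875018-43941338; its nearest coding genes were TMEM63B and VEGFA, which encodes an endothelial growth factor. Counting regions within 50 kb of a start, GSE1 had the most (13), followed by DDIT4 (12) and ZFPM2 (9).

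Globin, erythroid transcription factor, red cell membrane and BCR-ABL1 and JAK-STAT5 signalling genes had a distal region within 50 kb in larger shares (70.0%, 53.3%, 42.9% and 53.3%) than protein-coding genes in general, and heme synthesis genes did not. Of all 20090 protein-coding genes, 15.6% had a distal region within 50 kb of a start, and 45.3% had a peak of all 6 lists within 3 kb of a start. Of 10 globin genes, 7 had a distal region within 50 kb. These genes share their neighbours, since only 5 different regions account for the 7. Of 15 erythroid transcription factor genes 8 had one, of 14 red cell membrane genes 6, and of 15 genes of BCR-ABL1 and JAK-STAT5 signalling 8. Iron handling had 2 of 10, heme synthesis 1 of 10, and megakaryocyte and platelet genes 0 of 12. For other lineages the counts were 2 of 12 for T cells, 1 of 10 for B cells, 1 of 12 for hepatocytes and 1 of 12 for neurons (CD2 and LCK, CR2, CYP3A4, and GRIN1). Within 100 kb the B cell markers had one in 4 of 10 cases, a larger share than the 24.9% of all protein-coding genes. Genes with a peak of all 6 lists at a start had a distal region in 24.1% and the others in 8.61%, and all 15 signalling genes, 14 of the 15 transcription factor genes and 9 of the 10 globin genes had such a peak, against 3 of the 46 markers of other lineages. The gene lists are short, no test was made of them, and distance does not assign a region to a gene.

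**Figure D2:**
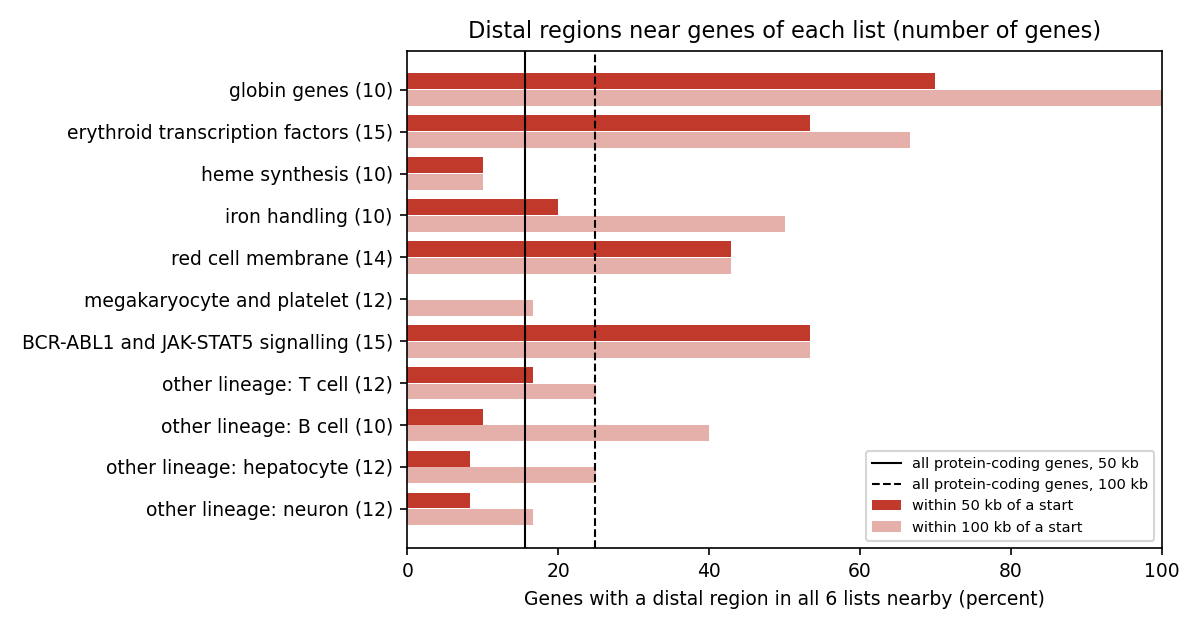
Percent of the genes of each list (number of genes in brackets) with a distal region within 50 kb (dark bars) or 100 kb (light bars) of a start, with lines at 15.6% and 24.9% for all protein-coding genes. Globin genes reached 70.0% within 50 kb and 100% within 100 kb, and heme synthesis genes stayed at 10.0% in both.

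At the β-globin locus, the region at chr11:5300556-5307704 lay 9381 bp from the start of HBE1, and its folds above exceeded the library medians of all distal regions in each of the 6 libraries. HBE1 itself had no peak of all 6 lists at a start, and the other 9 globin genes did.

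The transcription factor genes differed in how many distal regions surrounded them. LMO2, which bridges GATA1 and TAL1, had 4 within 50 kb, as did RUNX1. MYB, a factor of immature blood cells, had 3. GATA1 and TAL1 had 1 each, although both are central factors of red cell genes. The GATA1 region at chrX:48649396-48655116 had folds of 24.4, 25.1, 13.8, 22.7, 18.8 and 24.9, and the TAL1 region at chr1:47678595-47680646 had folds of 19.6, 19.7, 8.73, 12.4, 10.5 and 17.0. At TAL1 both ab177178 libraries stood above the other 4 libraries. KLF1, NFE2 and LDB1 had no distal region within 100 kb, while each had a peak of all 6 lists at a start. The globin repressor gene BCL11A had neither.

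Among genes of iron and heme, TFRC, which encodes the receptor for iron uptake, and SLC25A37, which encodes the mitochondrial iron importer, each had 3 distal regions. ALAS2, the first enzyme of heme synthesis in red cells, had 1 and no peak of all 6 lists at a start, while each of the other 9 heme genes had such a peak and no distal region within 100 kb. Of the red cell membrane genes, ANK1 (ankyrin) had 5, and EPB41, GYPC, SPTB, RHAG and XK had 1 or 2 each. SLC4A1, the gene of the anion exchanger band 3, had neither a distal region within 100 kb nor a peak of all 6 lists at a start. In BCR-ABL1 signalling, the kinase gene PIM1 had 5 distal regions within 50 kb. BCR and the survival gene BCL2L1 had 4 each, and ABL1 had 3. Of their windows, 1 at BCR and 1 at BCL2L1 recurred in the genome, with a median of 16 and 149 copies. At each of the 4 BCR regions both ab177178 libraries (14.3 to 32.9 over the regions) stood above the other 4 libraries (9.07 to 16.4). STAT5A, STAT5B, JAK2, EPOR and MYC had no distal region within 100 kb and a peak of all 6 lists at a start.

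Distal regions carried GATA and AP-1 letters more often than promoter regions did. Within the 300 bp window, 35.5% of distal regions (95% Clopper-Pearson interval 33.8 to 37.2%) and 12.7% of promoter regions held GATA letters. For AP-1 letters, the sites of the JUN and FOS family, the shares were 16.8% (15.5 to 18.2%) and 6.48%. The longer NF-E2 letters (GCTGAGTCA), which contain AP-1 letters, stood in 3.45% and 1.10%. ETS letters (CCGGAAG) went the other way, at 2.45% of distal and 10.5% of promoter regions. As a further reference, 300 bp promoters of RefSeq (GRCh38.p14, 250 bp before to 50 bp after a start, 35114 scanned) held GATA letters in 16.3%, AP-1 letters in 7.71%, NF-E2 letters in 0.561% and ETS letters in 10.3%. Other letters differed less between distal and promoter regions: KLF letters (CCACACCC) stood in 4.86% and 3.66%, RUNX letters (TGTGGTT) in 5.41% and 3.18%, E-box letters (CAGCTG) in 19.1% and 17.1%, CCAAT in 27.5% and 24.2%, and the CTCF core in 0.902% and 1.18%. RefSeq promoters held these letters in 3.28%, 4.27%, 17.9%, 34.6% and 1.05%. All letters were searched on both strands.

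The share with GATA letters was larger the more benchmark lists called a distal region: 23.6% at 1 list, 25.4% at 2, 29.8% at 3, 33.9% at 4, 34.7% at 5 and 35.5% at 6. AP-1 letters followed the same order, from 10.6% at 1 list to 16.8% at 6. Base composition differed between classes, with a mean GC content of 51.1% in distal windows, 62.4% in promoter windows and 44.2% in flanks 2 kb from the centres of distal regions. In windows of 45 to 55% GC alone, GATA letters stood in 37.8% of distal regions, 27.6% of promoter regions, 24.7% of distal regions of 1 list and 16.9% of flanks. AP-1 letters stood in 18.2%, 12.0%, 11.4% and 9.48% of them. Flanks of any GC content held GATA letters in 29.9% and AP-1 letters in 9.03%, against 35.5% and 16.8% of distal regions. Both sets of letters were densest at the centre: per bin of 100 bp, GATA letters stood in 14.2% of distal regions within 200 bp of the centre and in 10.6% beyond 1000 bp, and AP-1 letters in 6.08% and 3.01%. At promoter regions GATA letters were rarer at the centre (4.82%) than outside (9.48%). A match is a description of the letters, and binding was not measured.

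**Figure D3:**
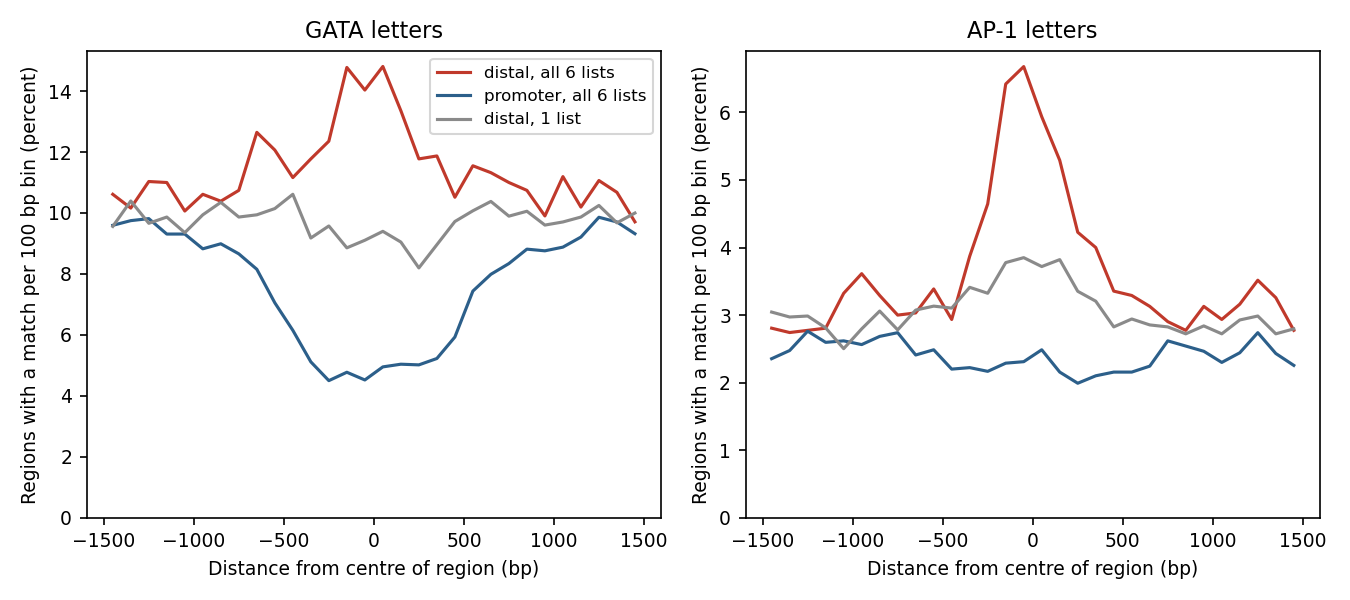
Percent of regions with GATA letters (left) or AP-1 letters (right) per 100 bp bin against distance in bp from the centre of the region, for distal regions of all 6 lists, promoter regions of all 6 lists and distal regions of 1 list. Within 200 bp of the centre, distal regions average 14.2% for GATA and 6.08% for AP-1 letters, and promoter regions 4.82% and 2.31%.

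Of the distal regions, 196 held both GATA and AP-1 letters, 906 GATA letters alone, 326 AP-1 letters alone and 1676 neither. The 4 groups were called by a median of 6, 5, 6 and 5 of the 25 other H3K27ac libraries (SEACR), so the letters hardly separated the regions by how often they were found again. Of the regions with both, those near TFRC and upstream of HBE1 are printed above, and they were called in 21 and 18 of the 25 lists.

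Whether other libraries of the same cells found these regions was asked of the 25 H3K27ac libraries that had no part in the choice. A distal region was called by a median of 5 of the 25 SEACR lists (quartiles 2 and 10), a promoter region by 9, and a distal region of 5 benchmark lists by 1. In 13 or more of the 25 lists stood 610 distal regions (19.7%), while among all 17264 distal regions of any number of benchmark lists without an H3K27me3 peak the share was 4.05%. All 25 lists called 43 distal regions (1.39%) and none called 284 (9.15%). The regions in all 25 included those between DDIT4 and DNAJB12, beside MKNK2, in DLGAP1, in RAB31 and upstream of SMAD6, which encodes an inhibitor of BMP signalling. Wide regions were found more often, with a median of 3 lists for the 776 narrowest regions and 12 for the 776 widest.

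Distance to a start made less difference: the median was 5 lists at 3 to 10 kb, 5 at 10 to 50 kb, 7 at 50 to 100 kb and 6.5 beyond. Of the named genes, TFRC regions were called in 21, 24 and 1 of the 25 lists, LMO2 regions in 22, 19, 4 and 2, and the IKZF1 region in 24. The MYB regions were called in 3, 3 and 1. Strength did not fix recovery: a region in PLPP7 with folds of 27.4 and 29.3, 20.4 and 30.9, and 30.0 and 32.9 in the 6 benchmark libraries was called in 0 lists. Of the 3104 windows, 415 (13.4%) recurred in the genome, and 10 of the 43 regions in all 25 lists recurred or lay within 500 kb of a gap of at least 1 Mb in the assembly. The regions far from any start at chr10:42364492-42366461 and chr10:42379385-42381494, both called in all 25 lists, lay 9556 and 24449 bp from such a gap.

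**Figure D4:**
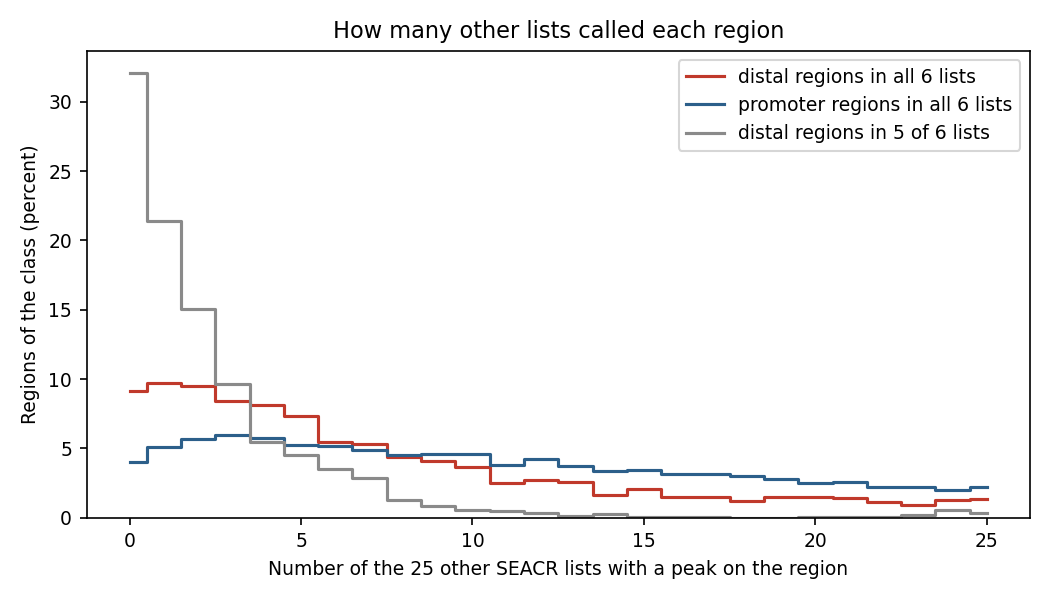
Percent of the regions of each class against the number of the 25 other SEACR lists with a peak on the region. Distal regions of all 6 benchmark lists have a median of 5, promoter regions of 9, and distal regions of 5 benchmark lists gather at 0 with a median of 1.

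In the 16 H3K27ac libraries of the PCR and extraction experiment, distal regions were recovered less often than promoter regions in every library. A SEACR peak stood on 23.8 ± 9.53% of distal regions (SD, n = 16 libraries) and on 36.5 ± 9.54% of promoter regions. The difference was −12.7 ± 7.88 percentage points and negative in 16 of 16 libraries (exact two-sided sign-flip permutation test, n = 16, p = 3.05e-05, the smallest it can give; Benjamini-Hochberg adjusted over 7 tests, 0.000107). It was −7.08 to −2.18 points with ab177178, −14.5 to −4.81 with Active Motif, −21.9 to −5.45 with Diagenode and −30.3 to −16.7 with ab4729. The test counted libraries of the same antibody as independent. With MACS2 in the 9 first and TSA libraries the shares were 33.7 ± 26.4% and 40.5 ± 29.3%. The MACS2 difference was −6.85 ± 7.37 points and negative in 8 of 9 libraries (same exact permutation test, n = 9, p = 0.0352, adjusted 0.0492). Distal regions are narrower, and the result moved with how a peak was matched. Where peaks had to cover at least 50% of a region, the SEACR difference was −2.82 points and the MACS2 difference −2.69 (exact permutation tests, adjusted p = 0.178 and 0.700). There the distal share was the higher in 6 of 16 SEACR and 7 of 9 MACS2 libraries. With the upper 50% of each SEACR list by signal the difference was −8.22 points. With the central 300 bp of each region looked up instead, SEACR gave 20.6 ± 8.75% and 31.2 ± 9.88% and kept its call, and MACS2 lost it at −3.32 points (exact permutation test, adjusted p = 0.306).

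Calling by the sixth benchmark list went with better recovery elsewhere. Regions of 5 lists were also narrower (median 1063.5 bp against 1747.5 bp). Their median folds where called were 8.73 to 11.0 over the 6 benchmark libraries, against 11.6 to 19.5 for regions of all 6 lists. The part of width and height in this difference was not tested. Distal regions of 5 benchmark lists had a SEACR peak in 6.35 ± 4.16% of cases in the 16 libraries, which is 17.5 ± 5.80 points below the regions of all 6 (higher in 16 of 16 libraries, exact permutation test, n = 16, p = 3.05e-05, adjusted 0.000107). With MACS2 in 9 libraries the difference was 18.3 ± 11.0 points (higher in 9 of 9, exact permutation test, n = 9, p = 0.00391, the smallest possible, adjusted 0.00911). The MACS2 difference was 2.27 points where peaks had to cover at least 50% of a region, and was positive in 2 of 9 libraries (exact permutation test, adjusted p = 0.700). The SEACR difference fell to 5.21 points with that setting and to 9.60 with the upper 50% of each SEACR list, and was positive in 16 of 16 libraries in both.

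**Figure D5:**
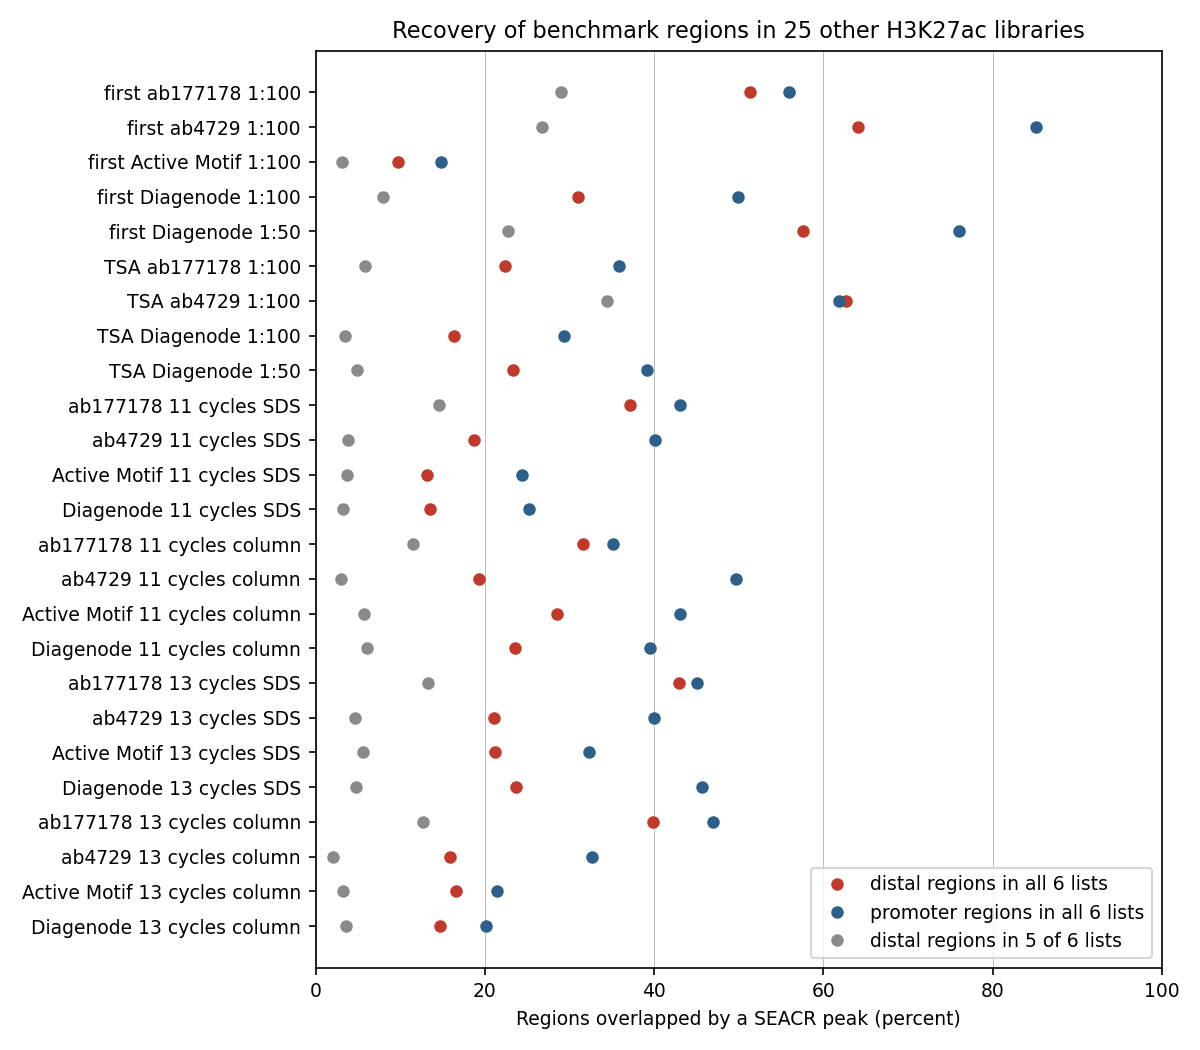
Percent of distal regions, promoter regions and distal regions of 5 benchmark lists overlapped by a SEACR peak in each of the 25 other H3K27ac libraries, 1 point per library and class. Promoter regions lie to the right of distal regions in 24 of the 25 libraries; the exception is ab4729 with TSA, at 62.7% of distal and 61.9% of promoter regions.

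The antibodies differed in how many distal regions their libraries of this experiment held. With ab177178 the shares were 37.1%, 31.6%, 42.9% and 39.9% at 11 cycles with SDS, 11 with column, 13 with SDS and 13 with column. In the same order they were 18.8%, 19.3%, 21.1% and 15.9% with ab4729, 13.5%, 23.6%, 23.7% and 14.7% with Diagenode, and 13.2%, 28.5%, 21.2% and 16.6% with Active Motif. The lowest ab177178 value was above the highest of every other antibody. Means were 37.9 ± 4.82%, 18.8 ± 2.15%, 18.9 ± 5.54% and 19.9 ± 6.64% (SD, n = 4 each), a range of 19.1 points (exact permutation of antibodies within conditions, p = 0.0138, adjusted 0.0242). The call was lost without the libraries of 11 cycles with column, of 13 with SDS or of 13 with column, and where 50% of a region had to be covered (exact permutation tests, adjusted p = 0.0656, 0.0656, 0.0851 and 0.0673). The ab177178 lists also held more SEACR peaks in all (8149 to 10768) than those of the other antibodies (3761 to 7191). By the paper's supplement, the ab177178 libraries had the most unique fragments of these antibodies in each condition before downsampling. The part of peak number and of unique fragments in the antibody difference was not tested. All 4 lists of ab177178 held 476 distal regions (15.3%), and 18 of these were in none of the remaining 12 lists. All 4 lists held 193 (6.22%) with ab4729, 148 (4.77%) with Active Motif and 140 (4.51%) with Diagenode. Each of those was also in a list of another antibody. The part of the longer ab177178 lists in these counts was not tested.

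Promoter regions did not follow the same order. With ab4729, 40.6 ± 6.97% of promoter regions had a peak, close to the 42.6 ± 5.19% with ab177178. The ratio of the distal to the promoter share was 0.890 ± 0.0459 with ab177178, 0.659 ± 0.0963 with Active Motif, 0.595 ± 0.0954 with Diagenode and 0.468 ± 0.0584 with ab4729. This comparison was added after the shares were seen, and the ratios spanned 0.422 (exact permutation test, p = 0.000217, adjusted over 8 tests 0.000579). With the central 300 bp looked up, the ratio was 0.914 ± 0.0554 with ab177178 and 0.465 ± 0.0575 with ab4729 (exact permutation test over the 4 antibodies, p = 0.000434). With 50% of a region covered, it was 1.19 ± 0.181 with ab177178, 1.05 ± 0.232 with Active Motif, 0.835 ± 0.300 with Diagenode and 0.468 ± 0.0937 with ab4729 (exact permutation test, p = 0.0129). In the benchmark libraries themselves, which chose the regions, the ratio was 0.835 and 0.862 with ab177178, 0.948 and 0.891 with ab4729, and 0.850 and 0.929 with Diagenode, so ab4729 was not low there.

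Neither the number of PCR cycles nor the extraction gave a difference beyond the spread. Libraries of 13 cycles held 1.31 ± 8.42 points more distal regions than those of 11 (higher in 5 of 8 pairs, exact permutation test, p = 0.656, adjusted 0.766). Column-based extraction differed from SDS-based extraction by −0.185 ± 8.51 points (higher in 3 of 8 pairs, exact permutation test, p = 0.969, adjusted 0.969). With SDS the share was higher at 13 cycles for each of the 4 antibodies (6.60 ± 3.36 points), and with columns for 1 of 4 (−3.97 ± 8.93 points). The difference between these effects was −10.6 ± 10.9 points (exact permutation test, n = 4, p = 0.250, where 0.125 is the smallest possible).

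TSA libraries held fewer distal regions than the first libraries of the same antibody and dilution. The SEACR share was 51.4% without and 22.4% with TSA for ab177178, 64.1% and 62.7% for ab4729, 31.0% and 16.4% for the 1:100 dilution of Diagenode, and 57.6% and 23.4% for its 1:50 dilution. The mean change was −19.8 ± 14.8 points with SEACR and −32.5 ± 23.0 points with MACS2, lower in 4 of 4 pairs with both. An exact permutation test of 4 pairs cannot give a p below 0.125. Whether the lists of a pair were called at equal depth is not stated for each list, so depth and TSA cannot be told apart here. For ab4729 the distal to promoter ratio was 0.753 without and 1.01 with TSA by SEACR, and 0.871 and 1.20 by MACS2; in the other 3 pairs it was lower with TSA by both callers.

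H3K27me3 was rare at distal regions, and also at promoter regions, in the 5 libraries that had no part in the choice. A SEACR peak of H3K27me3 stood on 1.29% of them in the first library, 0.805% at 11 cycles with SDS, 6.22% at 11 cycles with column, 0.483% at 13 cycles with SDS and 0.226% at 13 cycles with column. The mean was 1.80 ± 2.50% (SD, n = 5), and 0.701% without the library of 11 cycles with column. That library had a peak on 193 distal regions, which stood in a median of 17 of the 25 H3K27ac lists, and on 11.3% of promoter regions. The other libraries had a peak on 1.23%, 0.869%, 0.649% and 0.253% of promoter regions, in the order above. Distal regions of 5 benchmark lists averaged 1.93 ± 0.797% (SD, n = 5). All of these classes were chosen without a benchmark H3K27me3 peak. Of the 197 regions set aside for an H3K27me3 peak, 32.0% to 56.3% had one in these 5 libraries. Those 197 stood in a median of 12 of the 25 H3K27ac lists, 38.3% of their windows recurred in the genome, and 11.7% lay near a long gap. The part of recurring letters in these counts was not tested.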

How the data were processed

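The data were 56 deposited peak lists of 38 CUT&Tag libraries of K562 cells, each called by the authors on 1 library. Per the paper and the submitters' notes, the authors used bcl2fastq, Trim Galore 0.6.6, Bowtie2 2.2.9 (hg19), Picard 2.6.0, SAMtools 1.3.1 and bedtools 2.25.0, then MACS2 (q threshold 1e-5; narrow peaks for H3K27ac, broad for H3K27me3) and SEACR (threshold 0.01 for H3K27ac, 0.1 for H3K27me3). The SEACR mode is named stringent in the results and non-stringent in the methods. In the deposited MACS2 lists the authors give a score, the fold of pileup over background as a ratio, and −log10 p and −log10 q. In the deposited SEACR lists the signal is the authors' summed coverage of a peak. The PCR and extraction lists were downsampled by the authors to a shared depth. The paper removed peaks in blacklisted regions of hg19 before its later steps. Here such regions were not removed, so they may be among the regions counted. In the lists, 1 peak ran past a chromosome end.

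Peaks were merged with no gap allowed, and an overlap of 1 bp counted as shared. Starts came from GENCODE 44 lifted to GRCh37, and sequence from GRCh37. Windows were 300 bp, and a window recurred where the median count in the genome of 10 pieces of 30 letters was at least 2. Recovery was tested by exact permutation over libraries, two-sided, with Benjamini-Hochberg adjustment over 7 tests at 0.05, in Python 3.11.15 with numpy 2.4.6, scipy 1.17.1 and bedtools 2.31.1 (figures: matplotlib 3.10.9). The tests were checked on simulated data. The p-values measure the spread between these libraries, which may be technical. The sign-flip tests counted libraries of the same antibody as independent. Intervals are 95% Clopper-Pearson and cover counting error only. The regions, gene lists and motifs were chosen with earlier results of these data known. Named regions were the 10 called in most of the 25 other lists, the 5 widest, the 5 farthest from a start, the 3 clusters with most members, up to 3 genes per list with most and with no regions, up to 3 strong regions called in no other list, and those at the limits of the choice; other genes of the lists were named after their values were seen. Some of these regions and genes were left out of the text.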

Additional observations from a re-analysis of the deposited data

Results flagged for a closer look

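In groups of 4 or 5 libraries, the highest or lowest value was set against the rest of its group by Dixon's ratio. Chance marks about 1 in 20 groups, and 4 of the 18 groups looked at were marked. The H3K27me3 library of 11 cycles with column had a SEACR peak on 6.22% of distal regions, far from the other 4 H3K27me3 libraries (0.226% to 1.29%). Among the 4 TSA libraries, ab4729 had a SEACR peak on 62.7% of distal regions, against 16.4% to 23.4% in the others. The distal to promoter ratio of that library was 1.01 by SEACR, against 0.558 to 0.624 in the others. By MACS2 its ratio was 1.20, against 0.617 to 0.666. That library also held 21822 SEACR peaks, against 4462 to 7056 in the other TSA libraries, and the part of this was not tested.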

How the results depend on the processing

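No paired analysis was possible by replicate number, because the tested libraries carry no replicate numbers to use as a block. Pairs were matched by other labels instead. Cycle numbers were compared within antibody and extraction, extractions within antibody and cycle number, and antibodies within conditions. The TSA pairs were matched by antibody and dilution, and classes of regions were compared within each library. The count of distal regions was 1122 where each list had to cover at least 50% of a region, and 3195 to 3926 without 1 benchmark library; under the other settings it was within 1.5 times of 3104. The MACS2 difference between distal and promoter regions lost its call at q of 1e-10 or less (−4.90 points), with protein-coding starts alone (−4.55), with no H3K27me3 exclusion (−6.53), with 50% of a region in each list (−5.40), with peaks covering 50% (−2.69) and with the 300 bp window (−3.32), and in 8 of 15 fits without 1 library (−8.50 to −5.80). The SEACR difference lost its call only with peaks covering 50% (−2.82). With that setting the MACS2 difference from regions of 5 lists (2.27) and the antibody range (13.8 points) lost theirs too. In fits without 1 library the antibody range was 17.2 to 23.0 points, and 12 of 22 such fits lost the call. For this range, a dropped library of the PCR and extraction experiment took the other libraries of its condition with it. Dropping any library of 1 condition therefore gave the same fit, and the 12 repeat the losses by condition given in the Results. The fits without a benchmark library, which changed the regions, kept the call. The contrast of column with SDS, which passed no threshold, changed sign at q of 1e-10 or less (0.048), with 50% of a region in each list (0.590) and with the 300 bp window (0.113), and was −2.40 to 1.08 without 1 library. The GATA share was 32.8% with protein-coding starts alone, 31.6% with 50% of a region in each list, 70.9% in 1000 bp windows and 37.2% without recurring windows or regions near a gap; the AP-1 share was 36.6% in 1000 bp windows. Leaving out recurring windows, dropping the H3K27me3 library of 11 cycles with column and the antibody ratios were chosen after seeing the data. The causes of these shifts were not tested. Peak lists give no depth, so a region without a peak is not shown to lack the mark.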

Other observations

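Some distal regions stood apart by antibody in the benchmark libraries, which chose them, so these values are descriptions. A region of 17348 bp whose nearest coding gene is VEGFA had folds of 13.7 and 17.3 with ab177178, 41.4 and 48.1 with ab4729, and 41.8 and 56.0 with Diagenode, and 11 of the 25 other lists called it. In an intron of EPB41, which encodes a protein of the red cell membrane skeleton, a region of 5493 bp had folds of 48.1 and 45.0 with Diagenode and 17.9 to 21.3 in the other 4 libraries. In ZFPM1, which encodes the GATA1 partner FOG1, a region of 2330 bp had folds of 17.3 and 14.9 with ab177178 and 6.08 to 10.3 in the other 4 libraries. The widest region, 17441 bp near NET1, was called in all 25 other lists, and its folds were 68.4 and 68.1 with ab177178, 42.9 and 73.5 with ab4729, and 80.2 and 107 with Diagenode.

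The regions beside the long gap on chromosome 10 differed between replicates of 1 antibody. Their folds with ab4729 were 32.0 and 57.4 in replicate 1 and 12.4 and 16.5 in replicate 2, while over all distal regions the ab4729 median was higher in replicate 2.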
